A study of Mus musculus with 10 samples.

Results

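Interferon response and antigen presentation genes are the genes that cells switch on when interferon signals viral or cellular danger, together with the machinery that cuts proteins into peptides and displays them at the cell surface. The set described here holds 37 genes of the 45882 gene IDs in the data, chosen by name as known members of these pathways and found by gene symbol. The choice was made with earlier results of these data known. Of these 37, 31 reached a mean of at least 1 FPKM (fragments per kilobase of transcript, scaled to the mapped fragments of the library) over the 10 libraries and were tested among 11358 genes. The other 6 members, Ifi44, Dhx58, Isg15, Oas2, Mx1 and Mx2, lay below that level. The filter used the mean of all libraries, and 5 tested members (Ifit1, Ifit3, Usp18, Isg20 and Rtp4) had a control mean under 1 FPKM, so they passed through the other groups. Ifit1 and Usp18 also had TAC means under 1 FPKM (0.882 and 0.875 FPKM). These 2 genes passed only through the knockout (1.56 and 1.58 FPKM).

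RNA was sequenced from adult cardiac myocytes that had been isolated from left ventricles of C57BL/6 mice. CTCF, a zinc finger protein that organises chromatin loops, was removed in 4 mice (CTCF knockout). A further 3 mice underwent transverse aortic constriction (TAC), surgery that tightens the aortic arch and so puts the left ventricle under pressure overload, and their genotype is not labelled. Control mice numbered 3. Each library is labelled with a different mouse. The labels give neither ages in weeks, nor the promoter that drives the deletion of Ctcf, nor the interval between surgery and isolation of the cells.

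Interferons are secreted proteins that bind receptors joined to JAK kinases, which activate STAT transcription factors. A complex that holds STAT2 and IRF9 binds an interferon-stimulated response element (ISRE) in the promoters of its targets, while other STAT complexes bind gamma-activated sites (GAS). The targets include sensors of foreign RNA, proteins that block viral translation or release, and the immunoproteasome, whose peptides the TAP transporter carries into the endoplasmic reticulum for loading onto class I molecules. In the heart this programme is known from viral myocarditis.

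The promoter windows of the 4 genes that rose in the CTCF knockout and hold an ISRE are shown with that of Psmb10, the most abundant member, which also rose and had no match. Each window runs from 250 bases before to 50 bases after the gene's start in RefSeq annotation (build GRCm38.p6), 5′ to 3′ on the gene's own strand, and capitals mark matches to the ISRE pattern (GAAA, any 2 bases, GAAA) on either strand.
Ifit3, chr19:34583279-34583578, plus strand: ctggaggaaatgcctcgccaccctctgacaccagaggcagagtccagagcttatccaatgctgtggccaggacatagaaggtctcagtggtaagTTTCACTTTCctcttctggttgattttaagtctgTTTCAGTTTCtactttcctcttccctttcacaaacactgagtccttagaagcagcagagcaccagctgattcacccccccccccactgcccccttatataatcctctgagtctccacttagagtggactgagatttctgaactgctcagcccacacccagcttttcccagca
Bst2, chr8:71537423-71537722, minus strand: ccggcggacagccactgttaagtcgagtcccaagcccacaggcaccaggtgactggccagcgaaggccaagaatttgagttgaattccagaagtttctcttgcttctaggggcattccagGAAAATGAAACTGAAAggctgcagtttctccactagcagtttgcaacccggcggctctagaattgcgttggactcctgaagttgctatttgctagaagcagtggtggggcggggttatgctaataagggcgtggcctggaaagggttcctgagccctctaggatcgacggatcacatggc
Ifih1, chr2:62646206-62646505, minus strand: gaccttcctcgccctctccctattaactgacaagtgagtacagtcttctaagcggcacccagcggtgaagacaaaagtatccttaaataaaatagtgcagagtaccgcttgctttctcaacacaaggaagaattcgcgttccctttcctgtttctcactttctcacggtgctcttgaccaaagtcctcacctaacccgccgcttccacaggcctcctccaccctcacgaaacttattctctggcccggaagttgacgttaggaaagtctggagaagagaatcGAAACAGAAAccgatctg
Ddx58, chr4:40239776-40240075, minus strand: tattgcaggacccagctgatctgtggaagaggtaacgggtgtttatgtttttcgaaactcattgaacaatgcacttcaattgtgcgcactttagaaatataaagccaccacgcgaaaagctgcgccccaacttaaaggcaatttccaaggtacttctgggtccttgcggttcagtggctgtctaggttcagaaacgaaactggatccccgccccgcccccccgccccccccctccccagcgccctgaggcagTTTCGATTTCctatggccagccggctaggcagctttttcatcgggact
Psmb10, chr8:105938343-105938642, minus strand: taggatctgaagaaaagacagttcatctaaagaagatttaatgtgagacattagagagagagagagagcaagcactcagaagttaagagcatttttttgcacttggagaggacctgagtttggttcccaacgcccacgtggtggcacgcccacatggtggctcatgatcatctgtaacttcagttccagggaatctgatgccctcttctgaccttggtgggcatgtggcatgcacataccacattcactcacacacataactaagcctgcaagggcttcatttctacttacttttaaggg

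RefSeq promoter windows matched 26 of the 37 members, some with more than 1 window. The ISRE pattern was found in 11 of the 26 (42.3%), against 3.56% of 8341 tested genes with a window. The holders were Ifit1, Ifit3, Ifih1, Ddx58, Isg15, Stat2, Rsad2, Bst2, Gbp2, Gbp3 and Gbp7. Counted from the start with no position 0, the ISRE matches of Ifit3 began at -156 and -122 and those of Bst2 at -130 and -124, a pair that overlaps. In Ifih1 the match began at 33 and in Ddx58 at 3, both inside the transcribed stretch. Isg15 held 3 overlapping matches, at -78, -72 and -66. The GAS pattern TTCNNNGAA, searched on both strands, lay in 7 of the 26 members (26.9%), against 7.96% of tested genes. The NF-kB pattern (GGGA, any 4 bases, CC) lay in 7 of 26 (26.9%), against 30.5%, and the CTCF core pattern (CCAC, any base, AG, any 2 bases, GGC) in 0 of 26, against 1.02%. Of the 11 members called higher in the knockout that had a window, 4 held an ISRE, and of the 13 tested members with a window that were not called, 6 did. Such matches describe letters in these windows only.

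The genotype labels were checked first. Ctcf stood at 2.90, 4.01, 2.6 and 4.42 FPKM in the CTCF knockout libraries, 7.32, 5.70 and 5.22 FPKM in the TAC libraries and 8.81, 8.34 and 6.80 FPKM in the control libraries. All 4 knockout libraries were below all control libraries (log2 fold change -1.02, limma adjusted p = 0.00136), and the knockout mean was 43.6% of the control mean. Residual transcript was thus listed in every knockout library. The cardiac myosin gene Myh6 reached 3778 to 4670 FPKM in the knockout libraries, 4955 to 5738 FPKM in the TAC libraries and 5430 to 7435 FPKM in the control libraries. Of 10 cardiac myocyte markers, none was at 0 in any library. In the knockout 5 of them fell (Myh6, Tnni3, Ryr2, Pln and Atp2a2) and 2 rose (Mybpc3 and Actn2) by limma, with a median log2 fold change of -0.36. In TAC 3 fell (Tnni3, Pln and Atp2a2) and 2 rose (Mybpc3 and Actn2), with a median of -0.19. Among all tested genes 10.6% rose and 10.2% fell in the knockout, and 8.08% rose and 7.37% fell in TAC. The call of Myh6 in the knockout was lost without control replicate 1 or 3 or knockout replicate 1, 2 or 4 (adjusted p up to 0.303 over the alternatives), and that of Tnni3 without control replicate 2 or 3 or knockout replicate 2 (up to 0.156). In TAC the calls of Tnni3 and Atp2a2 were lost without any 1 of most libraries (up to 0.245 and 0.419). The myocyte markers summed to 25332 to 32549 FPKM in the CTCF knockout libraries, 26771 to 32924 FPKM in the TAC libraries and 32551 to 35555 FPKM in the control libraries, so that every knockout sum was below every control sum, by little in knockout replicate 3, and their part in the results on the member genes was not tested. Reads per gene are not listed, so the depth behind each value is unknown, and the median coverage per FPKM, a relative measure of it, ranged from 3.90 to 6.09 between libraries. In RNA of cell preparations, fewer cells of a type and less RNA per cell cannot be told apart.

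The members were scarce transcripts in these cells. The median of the member means was 2.19 FPKM, against 5.99 FPKM for all tested genes. On average 6 members lay under 1 FPKM, 26 between 1 and 5 FPKM and 5 at 5 FPKM or more, and none was listed at 0 in any library. The most abundant was Psmb10, a catalytic subunit of the immunoproteasome, with a mean of 20.6 FPKM over the 10 libraries. It was followed by Ifi27, Ifi27l2a, Irf1 and Ifi35 (11.5, 9.02, 6.77 and 6.08 FPKM). The least abundant was Mx1, a dynamin-like antiviral GTPase, at 0.252 FPKM.

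**Figure D1:**
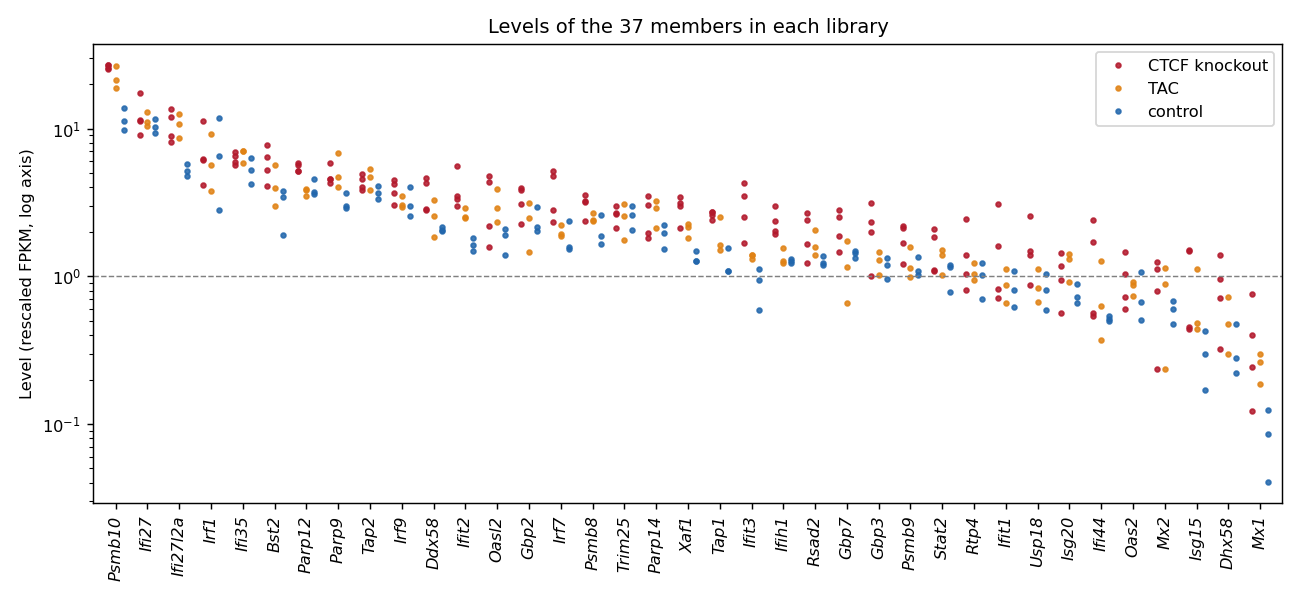
Levels of the 37 member genes in each library, in FPKM on a log axis, ordered by the mean of all 10 libraries, with CTCF knockout in red, TAC in orange and control in blue from left to right for each gene; every point is 1 library and the dashed line marks 1 FPKM. Psmb10 leads with a mean of 20.6 FPKM, and most members lie between 1 and 5 FPKM.

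In the CTCF knockout, 13 of the 31 tested members rose and 0 fell, where 10.6% of all tested genes rose and 10.2% fell. The 13 were Ifit2, Ifit3, Ifi27l2a, Ifih1, Ddx58, Irf7, Bst2, Xaf1, Parp9, Parp12, Psmb8, Psmb10 and Tap1. Their log2 fold changes, taken on FPKM + 1 and therefore smaller than the true ratio for scarce genes, ran from 0.38 for Parp12 to 1.12 for Psmb10. All 31 tested members had a positive fold change (48.9% of all tested genes), with a median of 0.39 against -0.01 over all tested genes. Among the 31, Ifit1 and Usp18 passed the filter only through the knockout, which favours a positive sign. Neither was called. In 11 of the 31 members (35.5%) every knockout library lay above every control library, against 14.8% of all tested genes. At an unadjusted p under 0.05 there were 17 members. The counts by role given below are parts of the 13, and the same 10.6% of all tested genes stands beside each. The 18 that were not called had log2 fold changes from 0.03 to 0.53. Leaving out control replicate 1, control replicate 2, knockout replicate 2 or knockout replicate 4 each lowered the count to 8. In the same order, the genes that rose among all tested genes were 938, 910, 869 and 1017, against 1203 in the main fit. Without rescaling of the libraries the member count stayed at 13, while calls over all genes were 1670 higher and 603 lower, against 1203 and 1159 with it. The 7 genes Ifit2, Ifit3, Ifi27l2a, Ifih1, Xaf1, Psmb10 and Tap1 were called in every alternative in which they were tested.

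**Figure D2:**
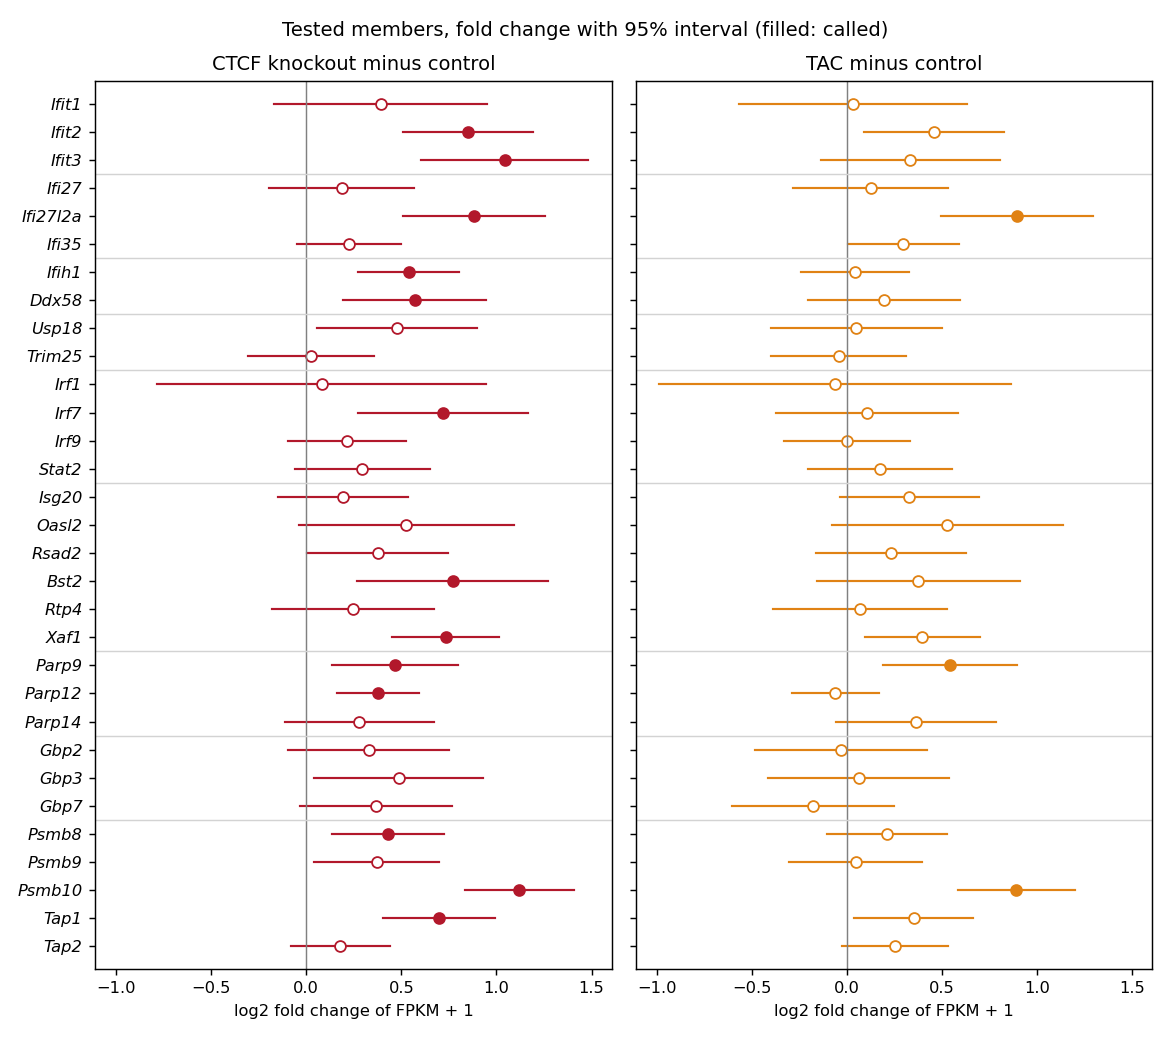
Log2 fold change of FPKM + 1 with its 95% interval for the 31 tested members, CTCF knockout minus control on the left and TAC minus control on the right; filled points passed an adjusted p of 0.05 and grey lines separate the groups of members by role. All 31 points lie right of 0 in the knockout panel and 25 in the TAC panel, and the 2 panels share the control libraries.

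The IFIT proteins bind viral RNA or block its translation. Ifit2 stood at 2.98, 3.51, 3.33 and 5.60 FPKM in the CTCF knockout libraries, 2.51, 2.48 and 2.91 FPKM in the TAC libraries and 1.64, 1.82 and 1.47 FPKM in the control libraries. Ifit3 stood at 1.67, 3.50, 2.51 and 4.28 FPKM in the CTCF knockout libraries, 1.39, 1.39 and 1.30 FPKM in the TAC libraries and 0.593, 1.12 and 0.950 FPKM in the control libraries. In both genes all knockout libraries were above all control libraries, with replicate 4 the highest, and the TAC libraries also lay above all control libraries. In the knockout against control, Ifit3 had a log2 fold change of 1.04 ± 0.20 (SE, limma adjusted p = 0.00411) and Ifit2 of 0.85 ± 0.16 (adjusted p = 0.00322). Ifit1 was not called (0.39, 95% interval -0.17 to 0.95), and knockout replicates 1 and 3, at 0.716 and 0.823 FPKM, lay within the control range of 0.623 to 1.09 FPKM. Ifit3 shares a run of 329 nt with its paralog Ifit3b, and the division of reads between them is therefore uncertain. Ifit3b itself stood at 0.934, 1.46, 0.931 and 2.55 FPKM in the CTCF knockout libraries, 0.711, 0.617 and 0.725 FPKM in the TAC libraries and 0.511, 0.476 and 0.575 FPKM in the control libraries. Its order of groups was that of Ifit3, with every knockout library above every control library. Ifit2, Ifit3 and Ifit1 lie in a row on chromosome 19, with 7.11 kb between Ifit2 and Ifit3.

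Among the small interferon-induced proteins, Ifi27l2a, a short hydrophobic protein, stood at 8.87, 12.0, 8.10 and 13.6 FPKM in the CTCF knockout libraries, 10.7, 12.6 and 8.68 FPKM in the TAC libraries and 5.17, 5.73 and 4.75 FPKM in the control libraries. All knockout libraries and all TAC libraries were above all control libraries, and the knockout and TAC ranges overlapped. Its log2 fold change in the knockout was 0.88 ± 0.17 (SE, limma adjusted p = 0.00417). Its neighbour Ifi27, 1.93 kb away on chromosome 12, stood at 9.05, 11.5, 11.2 and 17.4 FPKM in the CTCF knockout libraries, 10.5, 11 and 12.9 FPKM in the TAC libraries and 10.3, 11.7 and 9.33 FPKM in the control libraries. The 3 groups overlapped in Ifi27 (0.19 in the knockout, interval -0.19 to 0.57). Ifi35, a leucine zipper protein, stood at 5.69, 5.93, 6.97 and 6.50 FPKM in the CTCF knockout libraries, 5.84, 7.02 and 7.09 FPKM in the TAC libraries and 6.30, 5.25 and 4.24 FPKM in the control libraries. Its groups overlapped too, and it was not called (0.22, interval -0.05 to 0.50). Ifi44 was under the filter, with means of 1.30 ± 0.909 FPKM in the knockout, 0.756 ± 0.462 FPKM in TAC and 0.517 ± 0.0186 FPKM in control (SD, n = 4, 3 and 3).

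Both tested RNA sensors rose. Ifih1 encodes MDA5, which detects long double-stranded RNA, and stood at 1.95, 2.35, 2.04 and 2.98 FPKM in the CTCF knockout libraries, 1.55, 1.23 and 1.28 FPKM in the TAC libraries and 1.24, 1.27 and 1.32 FPKM in the control libraries. Ddx58 encodes RIG-I, which detects short RNA with an uncapped end, and stood at 2.86, 4.61, 2.80 and 4.29 FPKM in the CTCF knockout libraries, 3.31, 1.85 and 2.57 FPKM in the TAC libraries and 2.04, 2.17 and 2.01 FPKM in the control libraries. All knockout libraries were above all control libraries in both, while 1 or more TAC libraries lay within or below the control range. The log2 fold changes in the knockout were 0.54 ± 0.12 for Ifih1 (SE, limma adjusted p = 0.00944) and 0.57 ± 0.17 for Ddx58 (adjusted p = 0.0353). The call of Ddx58 was lost without any of control replicates 1 to 3 and without knockout replicate 2 or 4, with adjusted p up to 0.121 over the alternatives. Dhx58, the regulator LGP2 of the same family, was under the filter, at means of 0.848 ± 0.452 FPKM, 0.501 ± 0.217 FPKM and 0.327 ± 0.134 FPKM in the knockout, TAC and control groups (SD, n = 4, 3 and 3).

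Of the Isg15 system, in which a ubiquitin-like protein is attached to and removed from others, no tested member was called. Isg15 itself was under the filter at 0.441, 1.49, 0.451 and 1.5 FPKM in the CTCF knockout libraries, 1.11, 0.482 and 0.438 FPKM in the TAC libraries and 0.170, 0.424 and 0.298 FPKM in the control libraries. All knockout and all TAC libraries were above all control libraries, but knockout replicate 1 and TAC replicate 3 were nearly level with control replicate 2. Their bounds listed by Cufflinks, 0.0809 to 0.801 and 0.146 to 0.730 FPKM, overlapped those of control replicate 2, 0.0779 to 0.771 FPKM. The lower bound was 0 in control replicates 1 and 3. Usp18, the protease that removes Isg15, had a log2 fold change of 0.48 in the knockout (interval 0.06 to 0.90, limma adjusted p = 0.103). Trim25, a ubiquitin ligase that activates RIG-I, had 0.03 (interval -0.31 to 0.36).

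Among the transcription factors 1 of 4 rose. Irf7, which drives interferon genes and amplifies the response, stood at 2.34, 4.81, 2.82 and 5.13 FPKM in the CTCF knockout libraries, 1.95, 1.87 and 2.23 FPKM in the TAC libraries and 1.59, 2.35 and 1.54 FPKM in the control libraries. Knockout replicate 1 and control replicate 2 were nearly level, so the groups overlapped, and replicates 2 and 4 carried the highest knockout values. Its log2 fold change was 0.72 ± 0.20 (SE, limma adjusted p = 0.0283), and the call was lost without control replicate 1 or 3 or knockout replicate 2 or 4 (adjusted p up to 0.0934 over the alternatives). Irf1, an activator of class I and immunoproteasome genes, stood at 11.3, 6.21, 6.18 and 4.18 FPKM in the CTCF knockout libraries, 5.71, 3.75 and 9.14 FPKM in the TAC libraries and 2.80, 6.55 and 11.8 FPKM in the control libraries. It varied over a similar range within every group, and its interval was wide (0.08, -0.78 to 0.95). Irf9 and Stat2, which act together in the interferon-activated complex, were not called (0.21 and 0.30, limma adjusted p = 0.325 and 0.230).

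The antiviral effectors act on RNA, membranes or viral release, and 2 of the 6 tested rose. Bst2 encodes tetherin, which holds budding virus at the cell surface, and stood at 5.22, 7.72, 4.06 and 6.39 FPKM in the CTCF knockout libraries, 5.67, 3.01 and 3.99 FPKM in the TAC libraries and 1.91, 3.42 and 3.75 FPKM in the control libraries. Xaf1, a partner of the apoptosis inhibitor XIAP, stood at 3.12, 3.01, 2.11 and 3.42 FPKM in the CTCF knockout libraries, 2.16, 2.28 and 1.81 FPKM in the TAC libraries and 1.26, 1.48 and 1.27 FPKM in the control libraries. Every knockout library was above every control library in both, and in Xaf1 every TAC library was as well. Log2 fold changes in the knockout were 0.77 ± 0.23 for Bst2 (SE, limma adjusted p = 0.0337) and 0.73 ± 0.13 for Xaf1 (adjusted p = 0.00255). The call of Bst2 was lost without control replicate 1 or 2 or knockout replicate 1, 2 or 4, with adjusted p up to 0.126 over the alternatives. Those not called were the exonuclease Isg20, the oligoadenylate synthetase relative Oasl2, the radical enzyme Rsad2 (viperin) and Rtp4, with log2 fold changes of 0.19, 0.53, 0.37 and 0.25. Oas2, Mx1 and Mx2 were under the filter, with knockout means of 0.950, 0.381 and 0.848 FPKM against control means of 0.746, 0.0836 and 0.583 FPKM. In all 3 the knockout and control ranges overlapped, while every TAC library was above every control library in Mx1, and in Mx2 the most abundant transcript is annotated as a polymorphic pseudogene.

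The PARPs of the set add ADP-ribose to proteins or bind it. Parp12 stood at 5.15, 5.14, 5.83 and 5.66 FPKM in the CTCF knockout libraries, 3.87, 3.89 and 3.51 FPKM in the TAC libraries and 4.54, 3.74 and 3.63 FPKM in the control libraries. Parp9, which works with the ubiquitin ligase Dtx3l, stood at 4.55, 4.30, 4.56 and 5.83 FPKM in the CTCF knockout libraries, 6.79, 4.05 and 4.74 FPKM in the TAC libraries and 2.91, 3.0 and 3.67 FPKM in the control libraries. In both genes every knockout library was above every control library, and in Parp9 every TAC library was too. Log2 fold changes in the knockout were 0.38 ± 0.10 for Parp12 (SE, limma adjusted p = 0.0188) and 0.47 ± 0.15 for Parp9 (adjusted p = 0.0474). Parp12 lost its call without control replicate 2 or 3 or knockout replicate 3 (adjusted p up to 0.0738 over the alternatives). Parp9 lost it without any 1 of the control or knockout replicates or without TAC replicate 3 (up to 0.128). Parp14 was not called (0.28). The 3 guanylate-binding proteins, GTPases that attack the vacuoles of intracellular pathogens, were not called either, with 0.33 for Gbp2, 0.49 for Gbp3 and 0.37 for Gbp7 and limma adjusted p values of 0.264, 0.115 and 0.183.

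**Figure D3:**
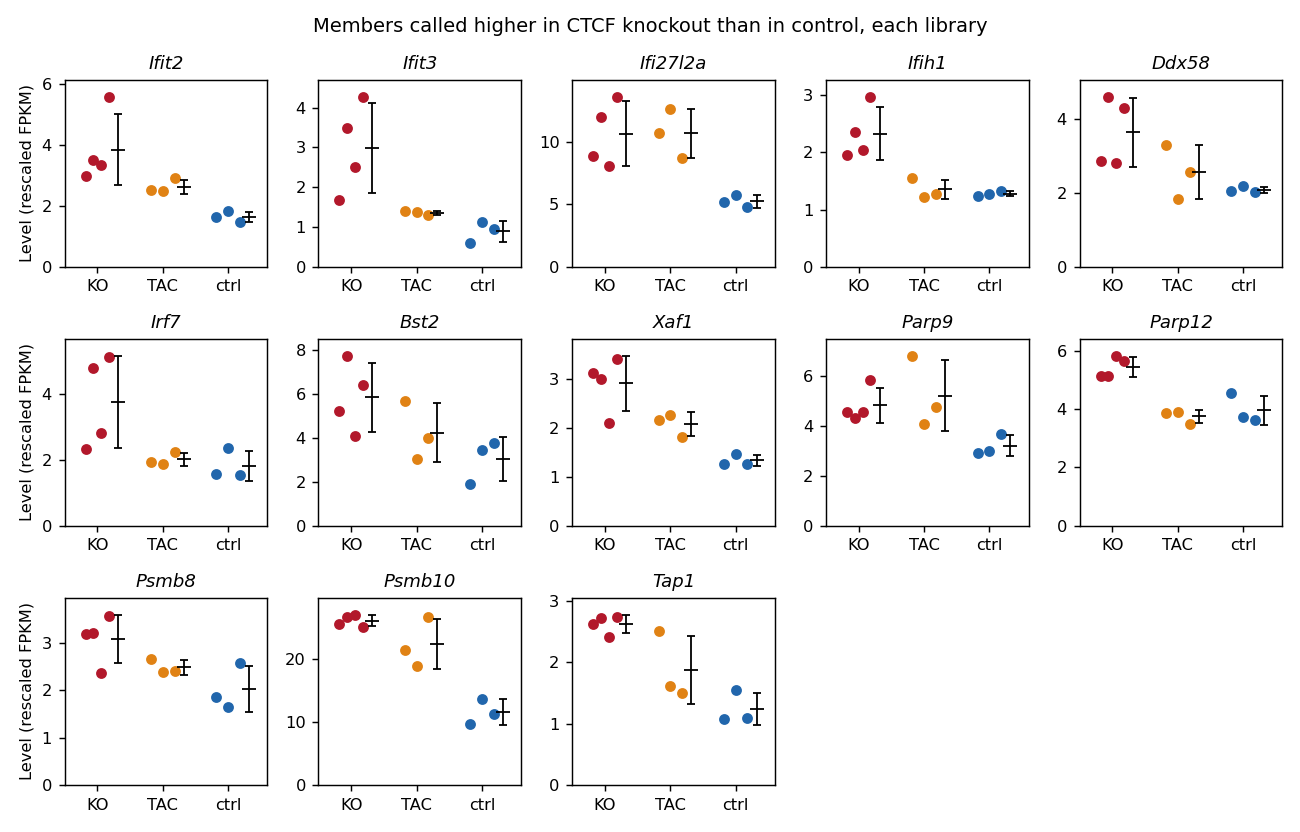
Levels in FPKM of the 13 members called higher in the CTCF knockout (KO) than in control (ctrl), with TAC between them; points are libraries and the black bar with whiskers is the group mean ± SD. The knockout points lie wholly above the control points in 11 of the 13 genes, the exceptions being Irf7 and Psmb8.

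Of the 5 antigen processing genes 3 rose. Psmb10 (Ensembl gene ENSMUSG00000031897, chr8:105935728-105938392 on the minus strand, mm10) encodes the immunoproteasome subunit that replaces Psmb7, and stood at 25.5, 26.7, 27.0 and 25.2 FPKM in the CTCF knockout libraries, 21.4, 18.9 and 26.7 FPKM in the TAC libraries and 9.74, 13.7 and 11.3 FPKM in the control libraries. Knockout libraries differed little among themselves, all knockout and all TAC libraries were above all control libraries, and TAC replicate 3 reached the knockout range. The log2 fold change was 1.12 ± 0.13 in the knockout (SE, limma adjusted p = 0.000217), the highest of the tested members on the scale of FPKM + 1. On plain FPKM its ratio of means, 2.26, was below those of Ifit3 (3.37) and Ifit2 (2.35) and of the untested Mx1 (4.56), Isg15 (3.26), Dhx58 (2.6) and Ifi44 (2.51). Rescaled bounds listed by Cufflinks for single libraries did not meet, the lowest knockout bound being 23.2 FPKM and the highest control bound 15.2 FPKM. An antisense transcript, Gm16156, covers all 2665 nt of the gene, and whether counting used the strand is not given in the sources used here. Gm16156 itself was listed at 0.12 to 0.29 FPKM in the knockout libraries, 0.13 to 0.26 FPKM in the TAC libraries and 0.08 to 0.18 FPKM in the control libraries. The gene lies 253 kb beyond the end of Ctcf on chromosome 8.

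The other processing genes lie together in the major histocompatibility region of chromosome 17. Tap1, a subunit of the peptide transporter, stood at 2.62, 2.72, 2.41 and 2.74 FPKM in the CTCF knockout libraries, 2.51, 1.62 and 1.5 FPKM in the TAC libraries and 1.08, 1.54 and 1.09 FPKM in the control libraries. Psmb8, the subunit that replaces Psmb5, stood at 3.18, 3.21, 2.36 and 3.57 FPKM in the CTCF knockout libraries, 2.67, 2.38 and 2.40 FPKM in the TAC libraries and 1.86, 1.65 and 2.58 FPKM in the control libraries. Every knockout library was above every control library in Tap1, whereas control replicate 3 lay above knockout replicate 3 in Psmb8. The log2 fold changes were 0.70 ± 0.13 (SE, limma adjusted p = 0.00404) and 0.43 ± 0.13 (adjusted p = 0.0409). Psmb8 lost its call in 12 of 21 alternatives, including every fit without control replicate 1 or 2, knockout replicate 1, 2 or 4 or any TAC replicate (adjusted p up to 0.149). Psmb9, which replaces Psmb6 and overlaps Tap1 head to head by 212 nt, had 0.37 (interval 0.04 to 0.70, adjusted p = 0.104), and Tap2, the partner of Tap1, had 0.18 (interval -0.08 to 0.44). The most abundant Tap2 transcript, 67.7% of the gene, is annotated as a retained intron.

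Each immunoproteasome subunit was set against the constitutive subunit it replaces within the same library, a ratio that does not depend on scaling between libraries. Psmb5 shares a run of 194 nt with Gm3375, and Psmb7 overlaps Gm13586 by 464 nt and Gm27634 by 126 nt. The ratios are uncertain to the extent that reads were shared. Psmb10 amounted to 26.3, 32.6, 28.7 and 31.9% of Psmb7 in the knockout libraries, 30.2, 19.3 and 25.4% in the TAC libraries and 13.3, 14.3 and 12.3% in the control libraries. The ratio was thus higher in every knockout and every TAC library than in any control library. Its mean log2 difference was 1.16 for the knockout against control (exact permutation test, two-sided, p = 0.0286, the smallest that 4 against 3 libraries allow) and 0.88 for TAC against control (exact p = 0.1, the smallest that 3 against 3 allow). After adjustment over the 9 ratio tests both exact p values became 0.257. Psmb8 amounted to 6.43 ± 1.43% of Psmb5 in the knockout, 4.87 ± 0.996% in TAC and 5.14 ± 1.1% in control (SD, n = 4, 3 and 3). Psmb9 amounted to 1.87 ± 0.503% of Psmb6 in the knockout, 1.33 ± 0.482% in TAC and 1.21 ± 0.111% in control (SD, n = 4, 3 and 3). For the knockout against control, the exact permutation p was 0.257 for Psmb8 over Psmb5 and 0.114 for Psmb9 over Psmb6. Of the 14 constitutive subunits of the proteasome core, limma called 0 in each of the 3 comparisons, with 3 at an unadjusted p under 0.05 in the knockout against control, 1 in TAC against control and 0 in the knockout against TAC.

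**Figure D4:**
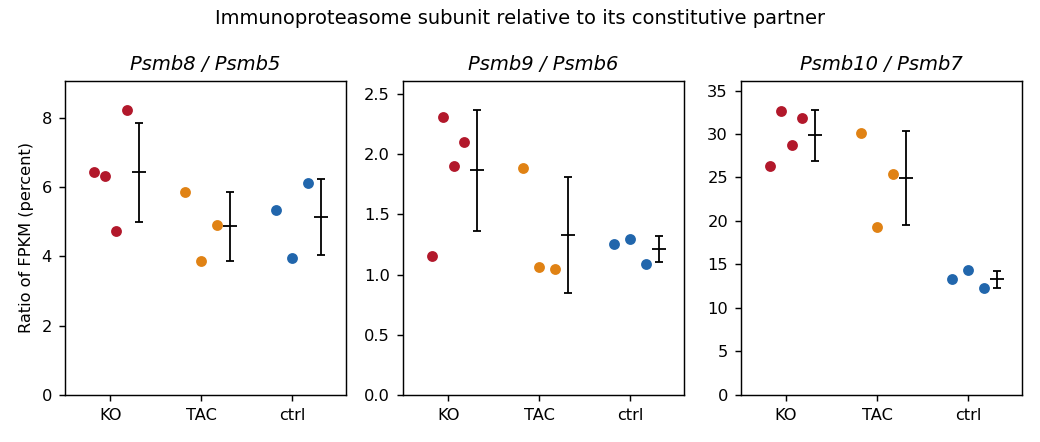
Ratio of the FPKM of each immunoproteasome subunit to that of the constitutive subunit it replaces, in percent, for CTCF knockout (KO), TAC and control (ctrl); points are libraries, the black bar with whiskers is the mean ± SD, and each panel has its own axis from 0. The Psmb10 ratio is 26.3 to 32.6% in the knockout libraries and 12.3 to 14.3% in the control libraries, while the other 2 ratios overlap between groups.

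In TAC against control, 3 of the 31 tested members rose (9.68%) and 0 fell, where 8.08% of all tested genes rose and 7.37% fell. The share of members that rose was thus close to that of all tested genes. They were Psmb10 (0.89 ± 0.14, SE, limma adjusted p = 0.00178), Ifi27l2a (0.90 ± 0.18, adjusted p = 0.00776) and Parp9 (0.54 ± 0.16, adjusted p = 0.0424). The per-library values above show all TAC libraries over all control libraries in each. The call of Parp9 was lost without control replicate 1 or 2, knockout replicate 1, 2 or 3 or TAC replicate 1 or 3. It was also lost with sex as a term. Its limma adjusted p reached 0.134 over the alternatives, while the other 2 genes were called in every alternative. Fold changes were positive in 25 members (49.4% of tested genes), the median was 0.20 against -0.00481 over all tested genes, and 7 members had an unadjusted p under 0.05. In 9 of the 31 members (29.0%) every TAC library lay above every control library, against 16.0% of all tested genes. They were the 3 called genes with Ifit2, Ifit3, Isg20, Oasl2, Rsad2 and Xaf1. TAC and knockout were compared with the same control libraries, so their values are given side by side only. Ifih1, Irf7 and Tap1, which rose in the knockout, had log2 fold changes in TAC of 0.04 (interval -0.24 to 0.33), 0.11 (-0.37 to 0.58) and 0.35 (0.04 to 0.67). Tap1 had an adjusted p of 0.123 in TAC. The macrophage markers listed with the other cell types were higher in sum in all 3 TAC libraries than in any control library, and their part in the result was not tested.

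The direct comparison of the knockout with TAC called 1 member, Parp12 (0.44 ± 0.10, SE, limma adjusted p = 0.0360), and none lower, where 1.58% of all tested genes were higher and 1.7% lower. Every knockout library was above every TAC library in Parp12. Its call was lost without any single knockout or TAC library and with sex as a term (limma adjusted p up to 0.129 over the alternatives). Without knockout replicate 1 the call count stayed at 1 with Ifit3 in its place. Ifih1 just missed the threshold (0.49 ± 0.12, adjusted p = 0.0503) and passed it in 6 of 21 alternatives. In 5 members (Ifit2, Ifit3, Ifih1, Irf7 and Parp12), 16.1% of those tested, every knockout library was above every TAC library, against 8.43% of all tested genes. In 0 was every knockout library below (9.64% of all tested genes). Fold changes were positive in 24 members (48.5% of tested genes). Ifit1 and Usp18, which passed the filter only through the knockout, are among these 24. At an unadjusted p under 0.05 there were 9 members, and the median log2 difference was 0.23 against -0.01 over all tested genes. For Ifi27l2a and Parp9 the differences were -0.02 (-0.39 to 0.36) and -0.07 (-0.41 to 0.26).

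Libraries of the same group were not alike in these genes. Of the 31 tested members, knockout replicate 4 was the highest of the 4 knockout libraries in 16 and replicate 2 in 10, against 2 for replicate 1 and 3 for replicate 3. The other groups were as uneven. TAC replicate 1 was the highest TAC library in 20 members, and control replicate 2 was the highest control library in 18. The summed level of the 37 members was 128, 158, 123 and 166 FPKM in the CTCF knockout libraries, 129, 109 and 122 FPKM in the TAC libraries and 80.7, 96.8 and 91.2 FPKM in the control libraries. Every knockout sum and every TAC sum was above the control sums, with knockout replicates 2 and 4 the highest. By the X-linked Xist and Y-linked genes, knockout replicate 4, TAC replicates 1 and 3 and control replicate 2 came from males. With sex as a term 12 of the 13 knockout calls were made. The calls of Parp9 in TAC and of Parp12 in the knockout against TAC were lost with that term. Ifih1 was called in the knockout against TAC with it. The library most often highest in its group was thus from a male in every group.

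Genes of the same pathway outside the set were read from lists of interferons, receptors, sensors, further targets and presentation genes. Interferon genes themselves were at or near 0, and 0 of 13 reached the test. Their summed level was 0.0774 to 0.186 FPKM in the knockout libraries, 0 to 0.197 FPKM in the TAC libraries and 0.0445 to 0.0689 FPKM in the control libraries. Ifnb1 did not exceed 0.0811 FPKM in any library. Levels this low in libraries of unknown depth do not show absence.

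Of 15 tested receptors, kinases and regulators of the pathway, 3 rose and 1 fell in the knockout, where 10.6% of all tested genes rose and 10.2% fell. Their median log2 fold change was 0.14. Stat3, the transcription factor of the gp130 cytokines, stood at 37.4, 41.3, 41.9 and 39.5 FPKM in the CTCF knockout libraries, 41.6, 49.2 and 41.8 FPKM in the TAC libraries and 29.5, 30.3 and 28.3 FPKM in the control libraries, and rose in the knockout (0.43 ± 0.09, SE, limma adjusted p = 0.00735) and in TAC (0.57 ± 0.10, adjusted p = 0.00328). Jak1, a kinase of the interferon receptors, stood at 22.4, 22.9, 20.1 and 23.2 FPKM in the CTCF knockout libraries, 26.8, 27.0 and 22.0 FPKM in the TAC libraries and 34.3, 36.1 and 32.3 FPKM in the control libraries, and fell in the knockout (-0.61 ± 0.10, limma adjusted p = 0.00180) and in TAC (-0.43 ± 0.11, adjusted p = 0.0204). Both genes were separate from control in every library of the other groups, in opposite directions. The lambda interferon receptor Ifnlr1 (0.46, adjusted p = 0.0140) and the phosphatase Ptpn2 (0.43, adjusted p = 0.0434) rose in the knockout. The call of Ifnlr1 was lost without control replicate 2 (adjusted p = 0.0561), that of Ptpn2 without control replicate 1 or 2, knockout replicate 1, 2 or 3 or TAC replicate 2 (up to 0.154), and that of Jak1 in TAC without control replicate 2 or TAC replicate 3 (up to 0.0745).

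Among 13 tested genes of nucleic acid sensing, 2 rose in the knockout, where 10.6% of all tested genes rose. The median log2 fold change of the 13 was 0.02. Tlr3, the endosomal receptor for double-stranded RNA, stood at 4.78, 8.15, 5.75 and 4.41 FPKM in the CTCF knockout libraries, 1.94, 1.44 and 1.66 FPKM in the TAC libraries and 1.57, 1.54 and 1.56 FPKM in the control libraries. The knockout libraries stood above all TAC and all control libraries, which overlapped each other. The log2 fold change was 1.37 ± 0.16 against control (SE, limma adjusted p = 0.000219) and 1.31 ± 0.16 against TAC (adjusted p = 0.00336). Adar, which edits double-stranded RNA, rose in the knockout (0.49, adjusted p = 0.0312), and Irf3 was higher in the knockout than in TAC (0.39, adjusted p = 0.0442). The call of Adar was lost without control replicate 2 or 3 or knockout replicate 2, 3 or 4 (up to 0.112), and that of Irf3 without control replicate 2 or any 1 of the knockout or TAC replicates (up to 0.134), while both calls of Tlr3 were made in every alternative. In TAC against control limma called 0 of the 13, with 1 at an unadjusted p under 0.05.

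Of 32 further interferon targets that were tested, 4 rose in the knockout and 0 fell (8 higher and 2 lower at an unadjusted p under 0.05 by limma), a share close to the 10.6% of all tested genes, although 29 of the 32 had a positive fold change and the median was 0.22. The 4 were the RNA-dependent kinase Eif2ak2 (0.45, limma adjusted p = 0.0158), Tor3a (0.54, 0.0254), Tdrd7 (0.40, 0.0336) and Phf11d (0.56, 0.0464), and none of these calls was made in every alternative. Eif2ak2 lost it without control replicate 3 (adjusted p up to 0.0634). Tor3a, Tdrd7 and Phf11d lost it without several single libraries, in each case including control replicate 2 and knockout replicates 2 and 4 (up to 0.0979, 0.112 and 0.162). In TAC, the conjugating enzyme Ube2l6 rose (0.66, adjusted p = 0.0383, lost without control replicate 2 or any 1 of the TAC replicates, up to 0.116) and the immunity-related GTPase Iigp1 fell. Iigp1 stood at 13.6, 11, 11.3 and 12.8 FPKM in the CTCF knockout libraries, 6.65, 3.99 and 6.55 FPKM in the TAC libraries and 9.68, 13.6 and 12.1 FPKM in the control libraries. All 3 TAC libraries lay below all other libraries, with log2 fold changes of -0.94 ± 0.17 for TAC against control (SE, limma adjusted p = 0.00441) and 0.99 ± 0.16 for the knockout against TAC (adjusted p = 0.00965).

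Class I presentation genes moved in both directions in the knockout, where 6 of 14 tested rose and 2 fell (10.6% and 10.2% of all tested genes). The heavy chain H2-K1 stood at 36.8, 45.8, 43.8 and 42.8 FPKM in the CTCF knockout libraries, 30.9, 23.7 and 29.2 FPKM in the TAC libraries and 19.6, 23.5 and 24.0 FPKM in the control libraries. Knockout libraries were above all others, with 0.89 ± 0.12 against control (SE, limma adjusted p = 0.000494) and 0.59 ± 0.12 against TAC (adjusted p = 0.0254, lost without knockout replicate 2, 3 or 4 or TAC replicate 2 or 3, up to 0.108). The heavy chains H2-Q6 (0.76), H2-Q7 (0.63), H2-Q4 (0.61) and H2-D1 (0.54) and the light chain B2m (0.45) rose as well, with limma adjusted p values from 0.0263 to 0.0473. The chaperones Canx (-0.76, adjusted p = 0.000709) and Calr (-0.53, adjusted p = 0.0343), which fold many other proteins besides class I, fell. Of these 8 knockout calls, H2-K1 and Canx were made in every alternative, and each of the other 6 was lost without knockout replicate 2, without knockout replicate 4 and without 2 or 3 of the control replicates in turn, with adjusted p up to 0.154. In TAC, Canx fell (-0.50, adjusted p = 0.0136, lost without TAC replicate 3 at up to 0.0587). Heavy chain genes are close relatives, and reads shared between them make their single values uncertain.

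All 5 tested class II genes rose in the knockout (10.6% of all tested genes). Class II molecules present peptides taken up from outside and belong to macrophages, dendritic cells and B cells. Cd74, their invariant chain, stood at 26.3, 30.0, 37.3 and 46.0 FPKM in the CTCF knockout libraries, 22.9, 19.5 and 18.7 FPKM in the TAC libraries and 14.6, 18.3 and 24.9 FPKM in the control libraries. H2-Ab1 stood at 7.95, 9.74, 11.4 and 16.8 FPKM in the CTCF knockout libraries, 8.4, 6.29 and 7.24 FPKM in the TAC libraries and 4.21, 5.59 and 7.51 FPKM in the control libraries. Knockout replicates 3 and 4 were the highest in both, and all knockout libraries of these 2 genes lay above all control libraries. The log2 fold changes in the knockout were 0.91 for H2-Eb1, 0.87 for H2-Ab1, 0.83 for Cd74, 0.82 for H2-Aa and 0.62 for the protease Ctss, with limma adjusted p values from 0.00837 to 0.0238. In TAC 1 of the 5, Ctss, was called (0.62, adjusted p = 0.0159). Of the 5 knockout calls, that of Ctss was made in every alternative, and the other 4 were lost without control replicate 1 (adjusted p up to 0.0817), H2-Aa and H2-Ab1 also without control replicate 2 and H2-Aa also without knockout replicate 3. The call of Ctss in TAC was lost without control replicate 1 or 2 or TAC replicate 3 (up to 0.0564). The summed level of 17 macrophage and leukocyte markers, cells that carry class II, was 85.7 to 144 FPKM in the CTCF knockout libraries, 123 to 142 FPKM in the TAC libraries and 78.7 to 105 FPKM in the control libraries, and their part in the result was not tested.

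Markers of other cells were measured in the same libraries. Beside the calls given for them here and below stand the shares of all tested genes. In the knockout 10.6% rose and 10.2% fell, and in TAC 8.08% rose and 7.37% fell. For the knockout against TAC 1.58% were higher and 1.7% lower. By library, the sum of the macrophage and leukocyte markers was 143, 93.4, 85.7 and 144 FPKM in the CTCF knockout libraries, 142, 123 and 126 FPKM in the TAC libraries and 78.7, 83.0 and 105 FPKM in the control libraries. Knockout replicates 2 and 3 lay within the control range while replicates 1 and 4 were above it, and all 3 TAC libraries were above it. None of the 17 was at 0 in any library. Of the 13 tested, Adgre1 rose (0.62, limma adjusted p = 0.0327) and Cd163 fell (-0.59, adjusted p = 0.0311) in the knockout, where 12 of the 13 fold changes were positive with a median of 0.34. In TAC, C1qc rose (0.63, adjusted p = 0.0199), all 13 fold changes were positive and the median was 0.49. These calls were lost without control replicate 1 and without each of 3 other libraries, with adjusted p up to 0.114.

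Lymphocyte markers did not exceed 0.397 FPKM, their sum was 0.510 to 1.15 FPKM in the CTCF knockout libraries, 1.05 to 1.2 FPKM in the TAC libraries and 0.506 to 1.26 FPKM in the control libraries, and 0 of 10 were tested. Between 0 and 3 of the 10 were at 0 in a library. The neutrophil genes S100a8 and S100a9 were highest in control replicate 2, at 14.1 and 22.4 FPKM. Of 14 endothelial markers, Vwf (1.16), Emcn (0.80) and Eng (0.91) rose and Aqp1 (-0.67) fell in the knockout by limma, all 4 calls being lost without knockout replicate 2, knockout replicate 4 or control replicate 3 and without others (adjusted p up to 0.127), with sums of 193 to 322 FPKM in the CTCF knockout libraries, 274 to 306 FPKM in the TAC libraries and 210 to 277 FPKM in the control libraries. Of 9 tested fibroblast markers, Col1a1, Col1a2, Col3a1 and Mfap5 rose in the knockout and in TAC, and the other 5 were not called. Fold changes were positive in 6 of the 9 in the knockout and 7 of the 9 in TAC, with medians of 0.24 and 0.16, and the list summed to 242 to 373 FPKM in the CTCF knockout libraries, 269 to 331 FPKM in the TAC libraries and 143 to 282 FPKM in the control libraries.

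Of 9 tested smooth muscle and pericyte markers, Cspg4 rose and Acta2 and Abcc9 fell in the knockout by limma (median 0.00), and Cspg4 and Des rose and Acta2 and Abcc9 fell in TAC (median -0.10). The sums of this list were 633 to 755 FPKM in the CTCF knockout libraries, 850 to 1343 FPKM in the TAC libraries and 555 to 705 FPKM in the control libraries. Of 5 tested erythroid markers, Hba-a1, Hba-a2 and Alas2 were lower in the knockout than in TAC (-2.42, -2.46 and -1.73, limma adjusted p = 0.0247, 0.0244 and 0.0386). These 3 calls were lost without knockout replicate 1, 3 or 4 or TAC replicate 1 or 2, and that of Alas2 also without TAC replicate 3 (adjusted p up to 0.142). The median erythroid log2 fold change was -0.96 for the knockout against control, 1.43 for TAC against control and -2.31 for the knockout against TAC, with sums of 130 to 632 FPKM in the CTCF knockout libraries, 951 to 1676 FPKM in the TAC libraries and 288 to 1198 FPKM in the control libraries. The part that all these cells take in the results on the member genes was not tested. 

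**Figure D5:**
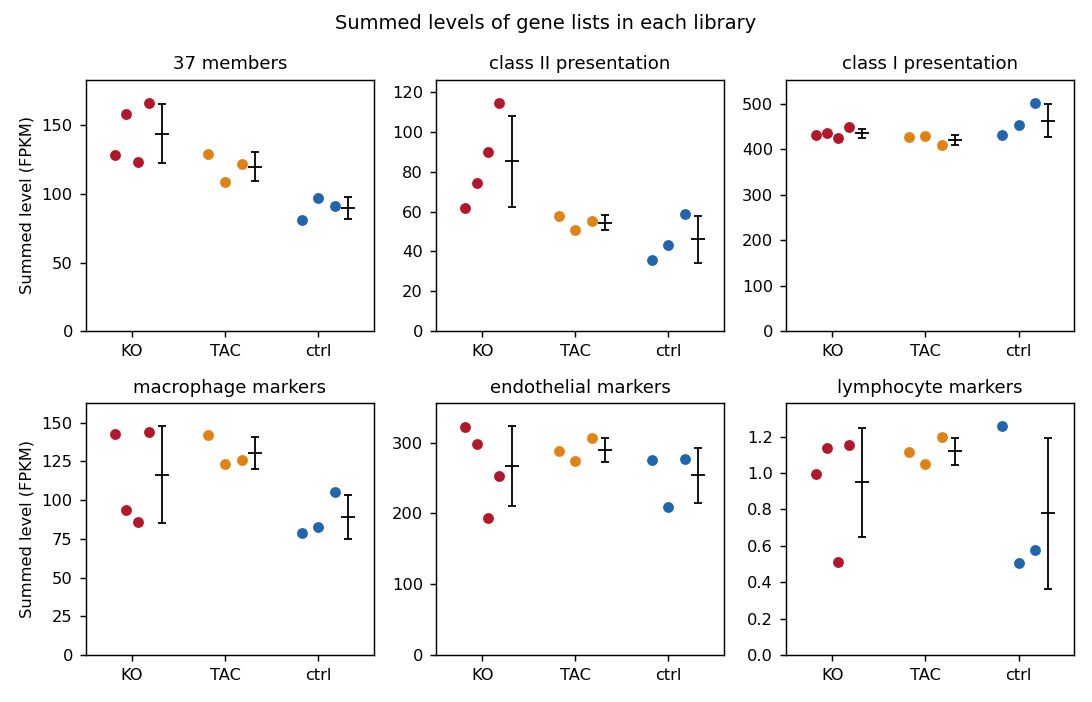
Summed level in FPKM of the 37 members, of the lists of class II and class I presentation genes and of 3 lists of cell type markers in each library, for CTCF knockout (KO), TAC and control (ctrl); points are libraries and the black bar with whiskers is the mean ± SD, each panel with its own axis from 0. The member sum is 123 to 166 FPKM in the knockout libraries and 80.7 to 96.8 FPKM in the control libraries. The macrophage sum of 2 knockout libraries lies in the control range, and the class I sums overlap. The class I sum holds genes that rose in the knockout together with the chaperones Canx and Calr, which fell.

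At the level of transcripts, 8 members have a single annotated transcript and 29 have several, and the most abundant was protein coding in 34. The division of a gene's FPKM among transcripts is an estimate by Cufflinks. In Parp9, the 3548-nt coding transcript stood at 2.59, 1.82, 1.76 and 1.86 FPKM in the knockout libraries, 2.80, 2.38 and 2.49 FPKM in the TAC libraries and 0.768, 0.746 and 1.24 FPKM in the control libraries. The groups did not overlap with control, whereas the 2973-nt coding transcript averaged 2.12 ± 0.830 FPKM in the knockout, 1.58 ± 0.767 FPKM in TAC and 1.63 ± 0.112 FPKM in control (SD, n = 4, 3 and 3). In Tap1, the 2953-nt coding transcript averaged 1.51 ± 0.686 FPKM in the knockout, 1.05 ± 0.185 FPKM in TAC and 0.324 ± 0.185 FPKM in control (SD, n = 4, 3 and 3). The groups overlapped in its 2614-nt coding transcript, at 0.571 ± 0.350 FPKM, 0.350 ± 0.336 FPKM and 0.540 ± 0.278 FPKM in the same order. Xaf1 had a 2597-nt coding transcript at 1.32 ± 0.756 FPKM in the knockout, 0.869 ± 0.547 FPKM in TAC and 0.147 ± 0.0676 FPKM in control, with knockout replicate 3 at 0.202 FPKM, inside the control range. The most abundant Xaf1 transcript was another coding one of 651 nt. It averaged 0.991 ± 0.555 FPKM in the knockout, 0.742 ± 0.664 FPKM in TAC and 0.794 ± 0.254 FPKM in control, and its groups overlapped. These transcript values were not tested.

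Some members share sequence or ground with other genes. Runs of at least 100 nt are shared by Ifit1 and Ifit1bl2 (180 nt), Gbp3 and Gbp7 (123 nt), Gbp7 and the pseudogene Gm43802 (637 nt), Mx1 and Mx2 (140 nt), Rtp4 and Gm45338 (296 nt), Irf9 and Rnf31 (123 nt) and Parp14 and Gm49730 (111 nt), besides Ifit3 and Ifit3b. Genes on the opposite strand overlap Psmb8, Psmb10, Tap2, Parp9, Ifi35, Irf1, Irf7, Dhx58, Oas2 and Gbp2, and Tap1 and Psmb9 overlap each other. Values of these members are uncertain to the extent that reads were shared.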

How the data were processed

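RNA was extracted with RNeasy and made into stranded paired-end libraries, per the labels, where the molecule is polyA RNA but the protocol removes ribosomal RNA. The deposited files list FPKM and a score for 109869 transcripts, made by the authors with TopHat2 2.1.0, Bowtie2 and Cufflinks 2.2.1 on mm10, per the submitters' processing notes, and the deposited score, a Cufflinks ranking of isoforms, was not used.

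Transcript FPKM was summed by gene ID. Left out were 22 gene IDs split between 0 and at least 100 FPKM and 7765 further IDs with a longest transcript under 300 nt, which left 38095. Libraries were rescaled by medians of ratios (factors 0.912 to 1.10), and all FPKM values given are rescaled. Genes with a mean of at least 1 FPKM were compared as log2(FPKM + 1) with limma 3.58.1 in R 4.3.3, with a variance trend, in 1 fit of all 10 libraries. Two-sided p values were adjusted over the 11358 genes (Benjamini-Hochberg), and rose, fell and called mean an adjusted p under 0.05. The procedure was tested on simulated data only for log2 fold changes larger than those of most members, so that test does not cover most effects given here. Ratios were compared with exact permutation tests. Lists had 143 pathway symbols in 7 lists and 81 marker symbols in 8 lists. The members and lists were chosen with earlier results of these data known. Symbols came from GENCODE annotation of GRCm38, which matched all but 1 of the list symbols, not analysed here. Values in every library are given for members called in any comparison and for the 5 most abundant, and for pathway lists up to 6 called genes are named, by smallest adjusted p. Isg15, Ifit3b, H2-D1 and H2-Q7 were added outside this rule, after their values were seen. Nothing in the labels says that a replicate number is shared between groups, so libraries were not paired. P values measure the spread between these mice.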

Additional observations from a re-analysis of the deposited data

Results flagged for a closer look

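Parp12 is listed because its difference between the CTCF knockout and TAC passed a direct test. The knockout effect minus the TAC effect was 0.4384 on the log2 scale (limma adjusted p = 0.036), with all 4 knockout libraries above all 3 TAC libraries. This call was lost with sex as a term and without any single knockout or TAC library. Of 40 groups of 4 knockout libraries examined for a library far from the rest (37 members and 3 ratios), 0 were found, where chance marks about 1 in 20.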

How the results depend on the processing

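Among 22 alternatives, the count of members that rose in the CTCF knockout, 13, was 8 without the filter on low values and 8 with a replicate block. It was 2 of 5 tested at a mean of at least 5 FPKM, and 8 to 14 when single libraries were left out. Fewer genes or samples entered some of these fits. In the main setting 1203 of 11358 genes rose. That count was 1021 of 26349 without the filter, 951 of 11358 with the replicate block and 690 of 6328 at 5 FPKM. Without single libraries it was 869 to 1178. In TAC the count of members that rose stayed between 2 and 4, where 627 to 1016 of all tested genes rose. For the knockout against TAC the count of members called higher was 1 in the main setting. It was 2 with a pseudocount of 0.5, no rescaling, quantile normalization, no variance trend or robust moderation. It was 0 without the filter, at 5 FPKM or with the replicate block, and 0 to 1 without single libraries. The cause was not tested. Over all genes, 179 were higher in the main setting, 93 without the filter, 95 at 5 FPKM and 112 with the replicate block. In the settings with 2 members, 182 to 255 were higher. Members that fell were 0 under each of these settings. Correlations of deviations from the group means were -0.359 to 0.327 between libraries of the same replicate number and -0.345 to 0.462 between others. With 3 or 4 libraries in a group they cannot show whether replicate numbers pair the libraries. With the replicate block the Psmb10 to Psmb7 ratio of knockout over control was 1.13 on the log2 scale, and its range without single libraries was 1.11 to 1.22. The Psmb8 to Psmb5 ratio of TAC over control (-0.07) reversed to 0.065 without control replicate 3 and to 0.0835 without TAC replicate 2 (range -0.25 to 0.08), and that of Psmb9 to Psmb6 (0.08) to -0.20 without TAC replicate 1 (range -0.20 to 0.23). Most members lie near 1 to 5 FPKM, and read depth, strand use and the RNA selection are not known, which limits the precision of each value.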
